A study of Sus scrofa with 15 samples.

Results

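Interferon-stimulated genes are the genes that cells switch on when interferon reaches them, and 44 of them, listed by gene symbol, were followed through the backfat of Iberian pigs. The count files held 42 of these symbols among 30477 genes. IFIT3 and XAF1 carry Ensembl identifiers that are not in these files and are not analysed here. Of the 42 genes, 37 were abundant enough to be tested among 14918 tested genes.

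The samples were subcutaneous fat biopsies of growing Iberian pigs at about a year of age, 5 per diet, each sequenced as 1 library. All pigs received pelleted compound feed throughout the growing period. Control (C) pigs ate a standard feed, dry olive pulp (DOP) pigs a feed made with olive pulp, and wet crude olive cake (WCOC) pigs a compound feed with olive cake silage offered freely. The WCOC compound feed was formulated for that group. By the study's methods, the DOP and WCOC compound feeds were restricted to a lower share of free energy intake than the C feed. Feeding level and olive by-product thus cannot be told apart against C. The labels give no other treatment. Each diet was fed to 1 group in 1 pen, so that diet and pen cannot be told apart, and the 15 biopsies were picked from a larger group by RNA quantity and quality.

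Interferons are signalling proteins that cells release after sensing foreign nucleic acid. Type I interferons bind the receptor chains IFNAR1 and IFNAR2, type II interferon binds IFNGR1 and IFNGR2, and both act through Janus kinases and STAT proteins. STAT2 and IRF9 act in a complex that binds the interferon-stimulated response element in the promoters of target genes, whereas the type II response also uses the shorter gamma-activated site. The products block viral entry, transcription, translation and release, and a low basal level is kept in most tissues, fat included.

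The library totals ran from 22373715 to 34745218 counts assigned to genes. Levels are given as CPM, the count of a gene scaled to the total of its library, with library totals adjusted by the trimmed mean of M-values (TMM), whose factors ran from 0.857 to 1.21. The run identifiers place C replicates 1 to 4 with the 5 WCOC libraries on 1 flow cell (A), and C replicate 5 with the 5 DOP libraries on another (B). On flow cell A, C replicates 1 to 4 and WCOC replicates 1 to 3 were on lane 2. WCOC replicates 4 and 5 were on lane 8, without a C library. All 7 adipocyte marker genes were abundant, with summed levels from 13730 to 21540 CPM per library. Skeletal muscle markers summed to 1008 CPM or more in 6 libraries, which were C replicates 1 and 3, DOP replicates 2, 4 and 5, and WCOC replicate 4, and reached 51530 CPM in DOP replicate 5. RNA was read from whole biopsies, so fewer cells of a type and less RNA per cell cannot be told apart.

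Stretches of promoter are shown for 7 genes that carried the letters of the response element upstream of their start, chosen among those whose levels are described in the following paragraphs. The letters GAAA, any 2 bases and again GAAA, a core of the interferon-stimulated response element, were searched on both strands from 250 bases before to 50 bases after the RefSeq gene start in the Sscrofa11.1 assembly. They occurred in 18 of the 43 windows of these genes (41.9%) and in 699 of 19534 windows of all protein-coding genes (3.58%). The windows of TAP1 and PSMB9 overlap, and the same matches are counted for both genes. IFIT3 and XAF1, which have no counts here, are among the 43 windows. The stretches lie at chr2:60305080-60305152 (plus strand) for BST2, chr6:63363042-63363127 (plus) for ISG15, chr5:70183153-70183212 (plus) for USP18, chr8:130591219-130591278 (minus) for HERC5, chr3:128897905-128897964 (minus) for RSAD2, chr6:134679213-134679264 (minus) for IFI44L and chr14:38847698-38847740 (minus) for OAS2. Each is written 5′ to 3′ on the strand of its gene, with the letters of the motif, or of its reverse complement, in capitals.
BST2: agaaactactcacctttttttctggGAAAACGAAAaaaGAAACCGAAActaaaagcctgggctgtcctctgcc
ISG15: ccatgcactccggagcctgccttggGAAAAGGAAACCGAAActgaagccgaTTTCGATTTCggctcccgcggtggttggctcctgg
USP18: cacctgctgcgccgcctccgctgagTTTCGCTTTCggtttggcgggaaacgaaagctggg
HERC5: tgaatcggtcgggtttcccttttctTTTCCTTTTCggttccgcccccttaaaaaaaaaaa
RSAD2: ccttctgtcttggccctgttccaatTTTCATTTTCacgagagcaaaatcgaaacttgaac
IFI44L: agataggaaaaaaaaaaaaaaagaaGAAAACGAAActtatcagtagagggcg
OAS2: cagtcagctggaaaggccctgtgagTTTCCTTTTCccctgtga

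BST2 had 2 matches on its own strand, starting 201 and 188 bases before the gene start. ISG15 had 3, of which 2 overlap each other by 4 letters and the third lies on the opposite strand. The letters of the gamma-activated site, TTC, any 3 bases and GAA, were found in 4 of 43 windows (9.3%) and in 1389 of 19534 windows of all genes (7.11%), and in BST2 they overlap the first response element match. The response element letters were not found in these windows of MX1, MX2, GBP1 and TRIM21. A match describes the letters and is not a measured binding site.

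Most of these genes were read at a moderate basal level in every pig. Of the 37 tested genes, 35 averaged at least 5 CPM over the 15 libraries. By mean CPM the most abundant were HERC6 (95.9 CPM), a HECT-type ubiquitin ligase, ZNFX1 (87.0 CPM), an RNA sensor on mitochondria, and OAS2 (87.0 CPM), which makes the messenger that activates RNase L. Per kb of exon the order differed, with IFI6 at 83.5 CPM per kb, BST2 at 52.0 and IFI44 at 23.8.

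IFI6, a small membrane protein that limits flavivirus replication and cell death, was read at 60.5, 55.8, 77.6, 70.8 and 103 CPM in C replicates 1 to 5, at 26.3, 66.5, 47.8, 52.9 and 53.7 CPM in DOP replicates 1 to 5 and at 80.8, 89.0, 31.8, 96.6 and 58.4 CPM in WCOC replicates 1 to 5. The diets overlapped, with DOP replicate 1 and WCOC replicate 3 the lowest of all. IFI44, which dampens proliferation and the interferon response, was read at 26.5, 36.65, 27.01, 29.2 and 44.0 CPM in C, at 20.7, 35.1, 29.0, 27.6 and 29.4 CPM in DOP and at 43.8, 30.2, 24.6, 26.8 and 27.6 CPM in WCOC. C replicate 5 and WCOC replicate 1 held nearly the same level and stood above all the others.

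A few members could not be measured. OAS1, TRIM25 and TAP1 were listed at 0 in all 15 libraries, although their neighbours OAS2 and PSMB9 were well covered. A zero in every library was found for 782 of 14864 genes with a symbol (5.26%), among them TBK1 and SOCS3, so these rows give no statement on expression. RIGI, the cytosolic sensor of viral RNA, had at most 2 counts in a library and IRF9, the DNA-binding subunit of the STAT complex, at most 5. STAT2 had 3 to 15 counts and ISG20, an exonuclease, 5 to 57, so both were tested on few reads. RIGI overlaps ACO1, STAT2 overlaps IL23A, IRF1 overlaps SLC22A5 and IFIT1 and IFIT2 lie within LIPA, each on the opposite strand, and the strand setting of the counting step is not given in the sources used here.

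Only 4 interferon genes of the list were in the count files, and they were near the limit of detection. IFNA1, IFNL1 and IFNL3 are not analysed here. IFNB1 and IFNE had at most 1 count in any library, IFNG at most 4, and IFNK was listed at 0. The receptor chains were read in every library, with means in C of 62.0 ± 13.3 CPM for IFNAR1, 56.0 ± 9.78 for IFNAR2, 83.1 ± 5.11 for IFNGR1 and 68.6 ± 8.33 for IFNGR2 (SD, n = 5). None of these 4 receptor genes passed the test in any comparison at the limits used, a Benjamini-Hochberg adjusted p under 0.05 over all tested genes and a log2 fold change (log2FC) of at least 0.58 in size. IFNGR1 came nearest, being higher in WCOC than in DOP in every pig with log2FC 0.35 (SE 0.08, edgeR adjusted p = 0.0143), under the log2FC limit.

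**Figure D1:**
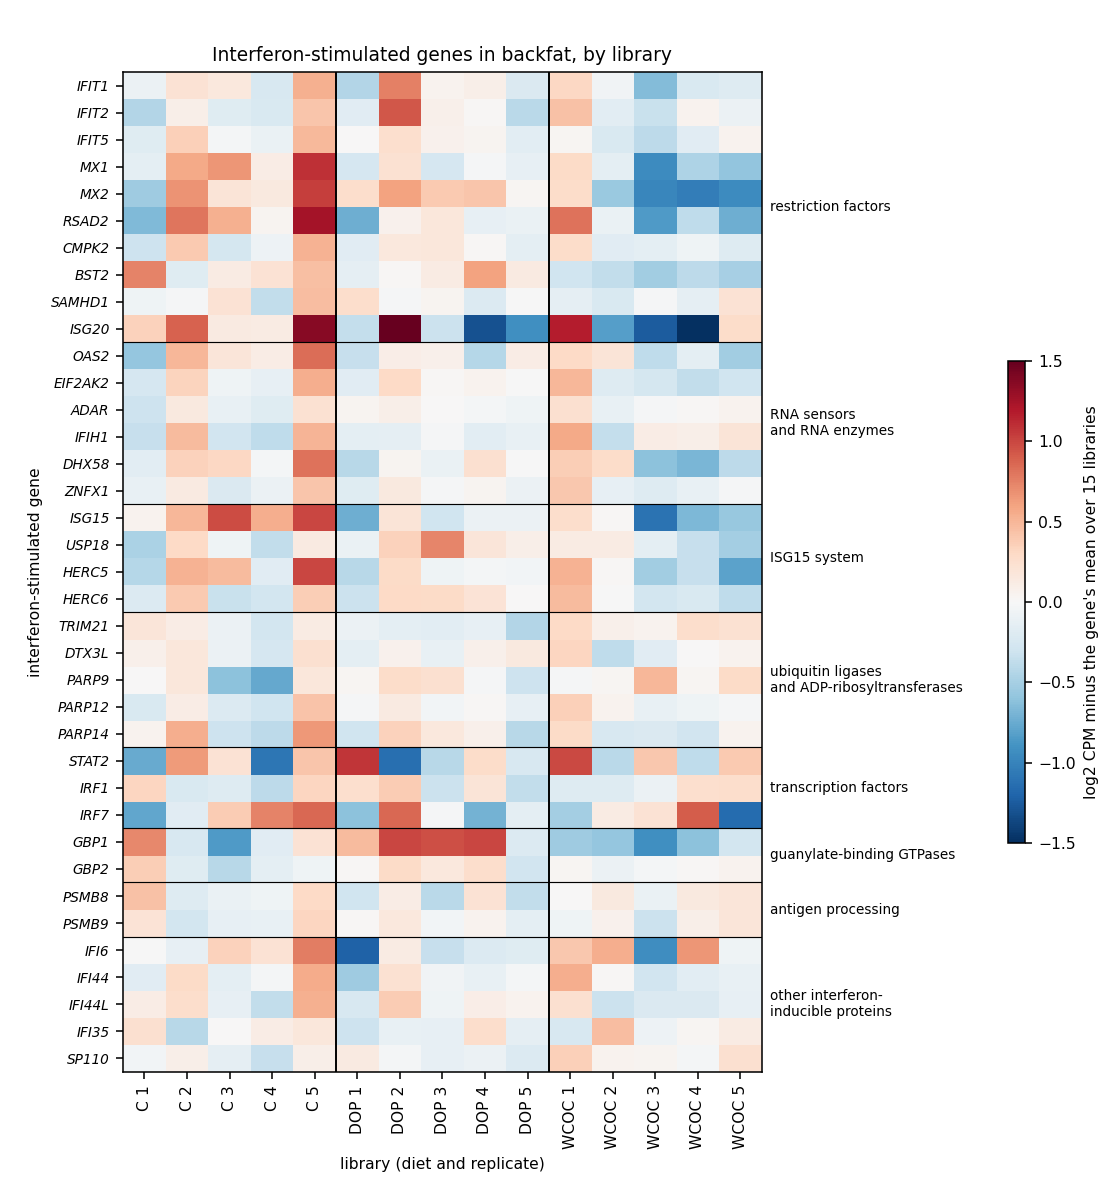
Heat map of the 37 tested interferon-stimulated genes (rows, grouped by role) in the 15 backfat libraries (columns, by diet and replicate). Colour is log2 CPM minus the mean of that gene over all libraries, so that red is above and blue below it; C replicate 5 is above the mean in 36 of 37 genes, and the BST2 row is blue in all 5 WCOC libraries.

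The differences between pigs of the same diet ran across many members at once. C replicate 5 was above the 15-library mean in 36 of 37 genes and was the highest library in 18, with a median deviation of 0.46 on the log2 scale, against −0.02 for all tested genes. WCOC replicate 1 was above the mean in 29 of 37 genes with a median deviation of 0.29, DOP replicate 2 in 31 with 0.20 and C replicate 2 in 27 with 0.21. At the other end, WCOC replicate 3 was above the mean in 6 of 37 genes and was the lowest library in 8, with a median deviation of −0.215. These values describe 15 libraries and were not tested.

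Within each diet a single pig stood on top for most members. C replicate 5 held the highest level of its diet in 26 of 37 genes, WCOC replicate 1 in 26 and DOP replicate 2 in 22. RSAD2, which makes a chain-terminating nucleotide, had the largest ratio of highest to lowest library (4.30) among members with a mean above 15 CPM, from 15.2 CPM in WCOC replicate 3 to 65.5 CPM in C replicate 5. Over the 37 genes the highest library exceeded the lowest by a median of 2.08 times. The steadiest were TRIM21, ADAR and SP110, with a within-diet SD of 0.15, 0.16 and 0.16 on the log2 scale, and among members with a mean over 10 CPM RSAD2 (0.61) and IRF7 (0.70) varied most.

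Markers of immune cells moved with some of these pigs and not with others. The 11 macrophage markers with counts, none of them at 0 in a whole diet, summed to 260.1 to 752.4 CPM in C, 186 to 464.6 in DOP and 124.9 to 345.8 in WCOC. C replicate 5 had the highest macrophage sum of all libraries, whereas WCOC replicate 1 had the lowest. The 10 T and NK cell markers summed to 27.6 to 53.2 CPM in C, with C replicate 5 again highest, to 9.66 to 43.9 in DOP and to 7.75 to 29.7 in WCOC. Single genes weighed heavily in these sums. NKG7 held 24.45 of the 53.15 CPM in C replicate 5, and CD4 ran from 0.38 to 23.7 CPM over the 15 libraries. The part of these cells in the levels of the interferon-stimulated genes was not tested.

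**Figure D2:**
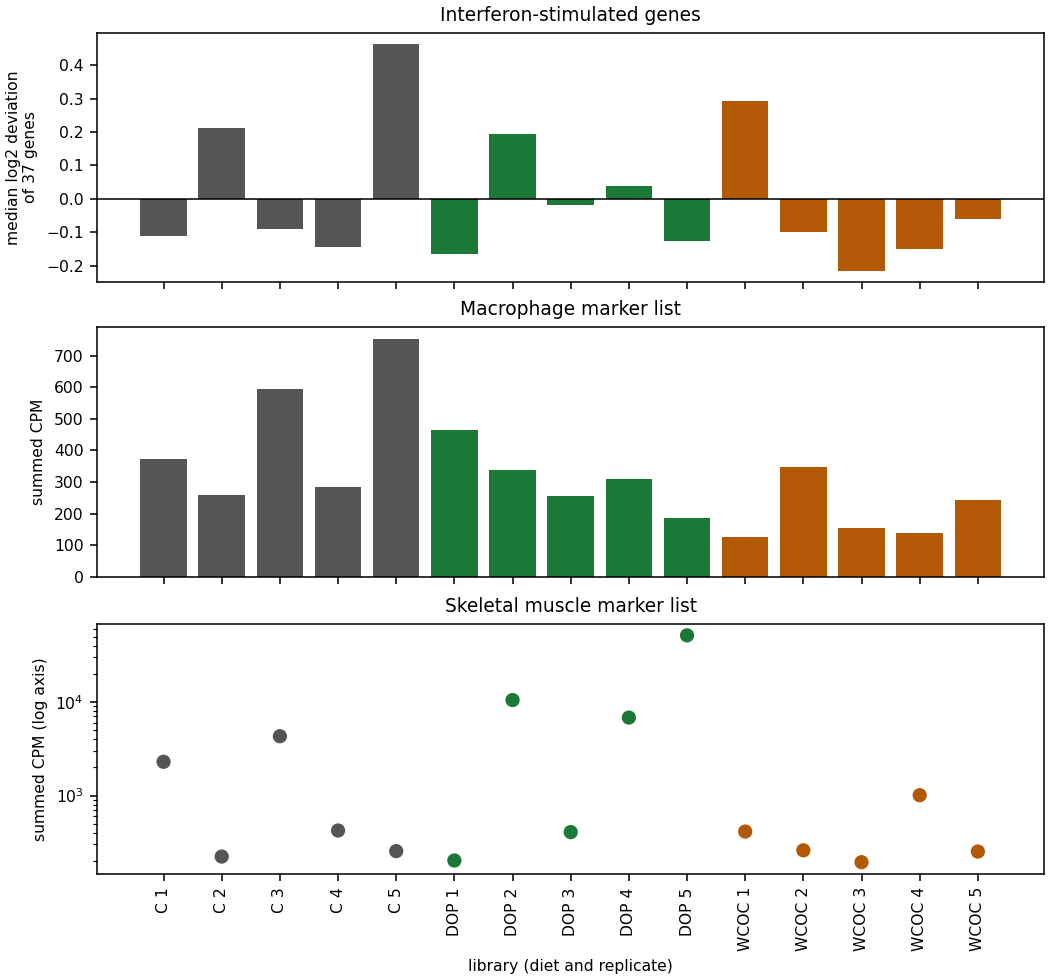
Top, the median log2 deviation of the 37 interferon-stimulated genes from their 15-library means in each library; middle, the summed CPM of 11 macrophage markers; bottom, the summed CPM of skeletal muscle markers on a log axis. Grey is C, green DOP and brown WCOC; C replicate 5 is highest in the top and middle panels, and WCOC replicate 1, second in the top panel at 0.29, is lowest in the middle panel at 124.9 CPM.

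The comparison of WCOC with C asked which genes of backfat differed between pigs on the whole WCOC diet and C pigs. Among the interferon-stimulated genes 4 of 37 (10.8%) were called, BST2, ISG15, MX1 and MX2, all lower in WCOC, beside 6.25% of all 14918 tested genes in either direction and 3.93% in the lower direction. At an unadjusted p under 0.05, 0 members were higher and 5 of 37 were lower, beside 13.2% and 13.1% of all genes. The log2FC was negative for 26 of 37 members, beside 49.4% of all genes, with a median of −0.10 beside 0.004 over all genes. For 20 of 37 members the 95% confidence interval of the log2FC lay within the limit of 0.58 on both sides.

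BST2, or tetherin, which holds budding virus particles on the cell surface, was read at 44.7, 23.5, 29.1, 31.1 and 36.8 CPM in C replicates 1 to 5, at 24.4, 27.1, 29.1, 40.6 and 29.5 CPM in DOP and at 21.8, 20.7, 18.6, 20.4 and 18.97 CPM in WCOC. Every WCOC pig was lower than every C pig and every DOP pig, and the WCOC libraries were also the closest to each other. The mean fell from 33.0 ± 8.05 CPM in C to 20.1 ± 1.33 CPM in WCOC (SD, n = 5), a log2FC of −0.72 (SE 0.16, edgeR adjusted p = 0.0141). It was the only 1 of 37 members without overlap between these diets, beside 7.62% of all genes in either direction and 3.87% in the lower. On flow cell A alone the log2FC was −0.68 (adjusted p = 0.0429). It was called in 19 of 20 other settings of the analysis, but among libraries with little muscle RNA (3 C and 4 WCOC) it was −0.62 (adjusted p = 0.0897).

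ISG15, the ubiquitin-like protein that is coupled to other proteins and also secreted, was read at 11.3, 15.3, 21.4, 15.8 and 21.7 CPM in C, at 6.55, 12.4, 8.83, 10.2 and 10.2 CPM in DOP and at 12.99, 10.97, 5.03, 6.80 and 7.32 CPM in WCOC. C replicate 1 was the only C library reached by either olive diet. The log2FC was −0.99 in WCOC vs. C (SE 0.25, edgeR adjusted p = 0.0257). On flow cell A alone it was −0.90 (adjusted p = 0.0875), and the call was lost without C replicate 3 or 5 or WCOC replicate 3, 4 or 5, with log2FC from −0.94 to −0.85.

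The other members of the ISG15 system did not pass the test in WCOC vs. C. USP18, the protease that removes ISG15 and blocks the type I receptor, had log2FC −0.06 (95% confidence interval −0.45 to 0.33), the ligase HERC5 −0.52 (−1.10 to 0.06) and HERC6 −0.07 (−0.48 to 0.33). ISG15 was called while the interval of USP18 reached at most 0.45 below 0 on the log2 scale; the difference between the genes was not tested.

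MX1 and MX2, dynamin-like GTPases that trap viral nucleocapsids, lie in tandem on chromosome 13 with 21.4 kb between them. MX1 was read at 22.6, 36.95, 39.4, 27.03 and 53.3 CPM in C, at 21.01, 29.3, 21.02, 24.8 and 22.9 CPM in DOP and at 30.5, 22.5, 13.03, 18.1 and 16.6 CPM in WCOC. MX2 was read at 25.1, 58.2, 41.8, 40.4 and 75.1 CPM in C, at 43.8, 55.6, 48.0, 48.6 and 37.2 CPM in DOP and at 44.0, 24.9, 18.5, 17.8 and 19 CPM in WCOC. For both genes C replicate 1 was the lowest C pig, and WCOC replicate 1 was the only WCOC pig that reached into the range of C. The log2FC in WCOC vs. C was −0.83 for MX1 (SE 0.24, edgeR adjusted p = 0.0376) and −0.95 for MX2 (SE 0.28, adjusted p = 0.0459).

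These 2 calls rested on several pigs. On flow cell A alone MX1 had log2FC −0.66 (adjusted p = 0.136) and MX2 −0.75 (adjusted p = 0.163). Both calls were lost without C replicate 2, 3 or 5 or WCOC replicate 3, 4 or 5, and that of MX2 also without C replicate 4 or WCOC replicate 2. The log2FC kept its sign in these 20 other settings, from −1.03 to −0.65 for MX1 and from −1.26 to −0.74 for MX2. Without C replicate 5, the pig with the highest level of most members, the log2FC was −0.65 for MX1 (adjusted p = 0.0948) and −0.74 for MX2 (adjusted p = 0.115).

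**Figure D3:**
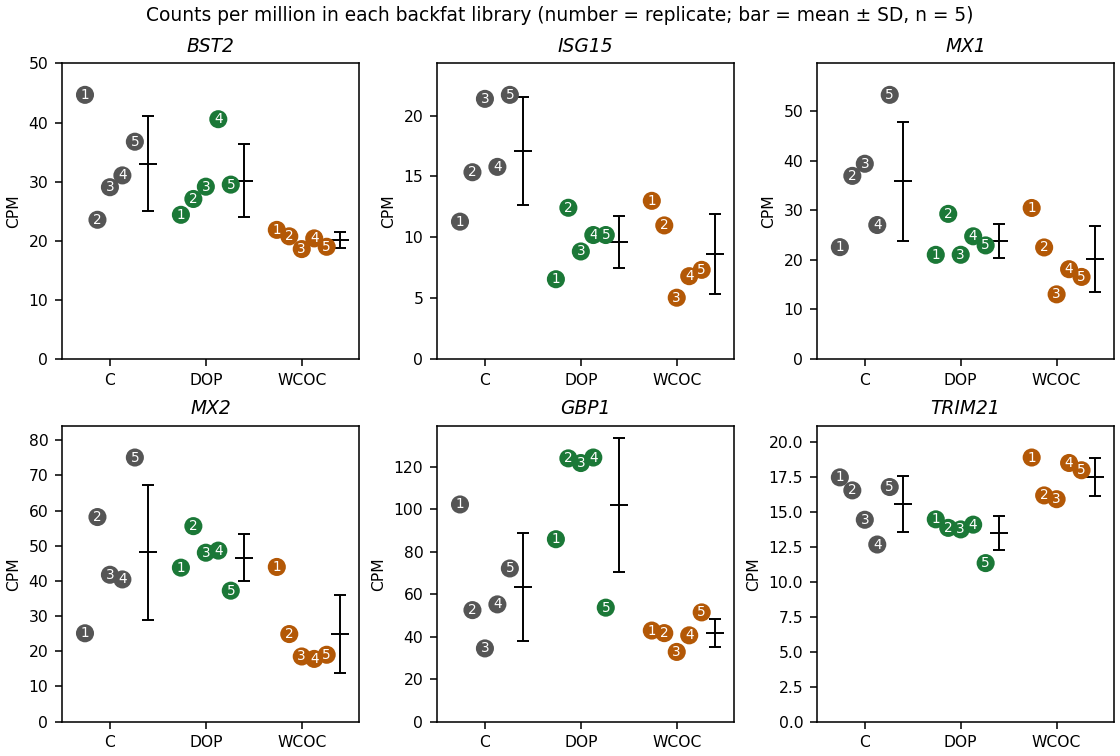
TMM-scaled CPM of 6 interferon-stimulated genes in each library of C (grey), DOP (green) and WCOC (brown), with the replicate number inside each point and the mean ± SD (n = 5) at its right. WCOC lies below both other diets in every pig for BST2, below every DOP pig for GBP1 and above every DOP pig for TRIM21.

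The remaining restriction factors, genes whose products act on the virus itself, were not called in WCOC vs. C. IFIT1, which binds foreign RNA caps and is the most abundant of them, averaged 51.2 ± 10.8 CPM in C and 42.4 ± 10.1 CPM in WCOC (log2FC −0.27, interval −0.74 to 0.19). RSAD2 had log2FC −0.65 with a wide interval from −1.39 to 0.08. Of the 10 tested restriction factors 3 were called lower (3.93% of all genes), 9 had a negative log2FC (49.4% of all genes) and the median was −0.46 (0.004 over all genes).

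The other roles showed no call in this comparison. Of the 2 guanylate-binding GTPases, GBP1 had log2FC −0.595 (interval −1.16 to −0.03, edgeR adjusted p = 0.17) and GBP2 0.06 (interval −0.22 to 0.34). The 6 tested RNA sensors and RNA enzymes had log2FC from −0.44 to 0.10, the 5 ubiquitin ligases and ADP-ribosyltransferases from −0.23 to 0.33, and the 3 transcription factors from −0.25 to 0.25. ZNFX1 averaged 89.0 ± 16.3 CPM in C and 86.7 ± 15.5 in WCOC. PARP12, an ADP-ribosyltransferase, averaged 29.7 ± 6.68 CPM in C and 31.1 ± 4.28 in WCOC (log2FC 0.07, interval −0.21 to 0.35). IRF1, a transcription factor of the interferon response, averaged 21.4 ± 4.99 CPM in C and 21.8 ± 3.56 in WCOC (log2FC 0.03, interval −0.36 to 0.41). PSMB8 and PSMB9, subunits of the immunoproteasome that cuts peptides for antigen presentation, had log2FC −0.02 each, with intervals from −0.33 to 0.30 and from −0.29 to 0.25. Among the 5 tested other interferon-inducible proteins, IFI44L averaged 71.1 ± 17.0 CPM in C and 60.8 ± 9.94 CPM in WCOC (log2FC −0.23, interval −0.57 to 0.12).

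Macrophage markers moved in the same comparison. All 11 had a negative log2FC in WCOC vs. C, with a median of −1.16, and 5 of them were called lower (CD68, CD163, MRC1, AIF1 and MSR1). Skeletal muscle markers had a negative log2FC in 6 of 6 tested genes (median −2.33), with 0 called by edgeR and 0 at an unadjusted p under 0.05. Of other cell type markers, NKG7 of T and NK cells (−1.70) and XCR1 of dendritic cells (−1.83) were called lower. ADIPOQ of adipocytes (0.66) was called higher. The other genes of these lists were not called. Of the T and NK cell markers, 6 of 10 had a negative log2FC (median −0.105). So did 4 of 5 dendritic cell markers (median −0.39) and 3 of 7 adipocyte markers (median 0.163). At an unadjusted p under 0.05, 2 adipocyte markers were higher and 1 was lower. Of the endothelial markers, 4 of 6 were higher at an unadjusted p under 0.05 with 0 called. The part of any of these in the levels of BST2, ISG15, MX1 and MX2 was not tested.

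**Figure D4:**
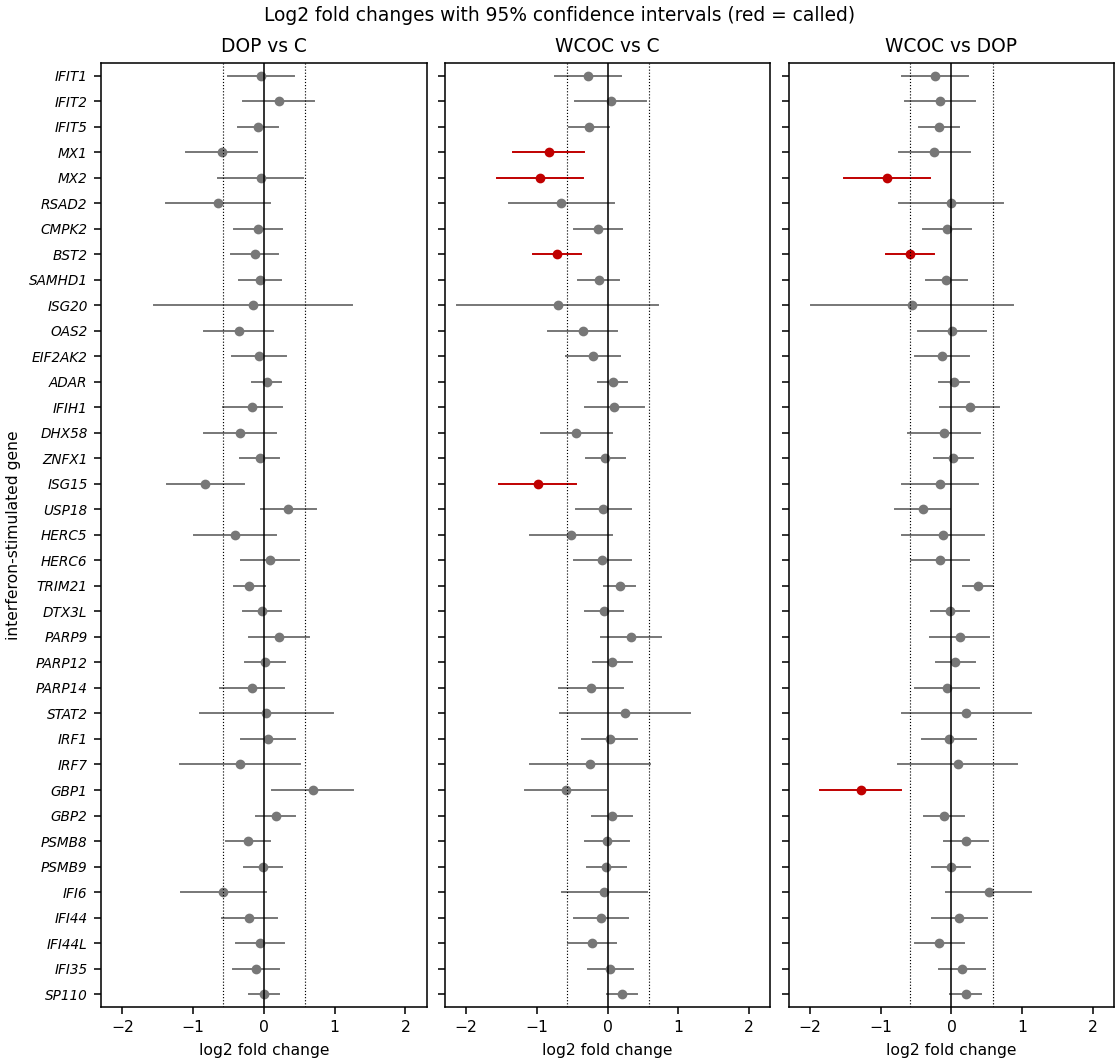
Log2 fold changes (points) with 95% confidence intervals (lines) of the 37 tested interferon-stimulated genes in the 3 comparisons, with dotted lines at the log2FC limit of 0.58 on both sides. Red marks the called genes, which are 0 in DOP vs. C, 4 in WCOC vs. C and 3 in WCOC vs. DOP, all lower in WCOC.

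In DOP vs. C, which shares the C libraries with the previous comparison, 0 of 37 members were called by edgeR, beside 0.764% of all tested genes. At an unadjusted p under 0.05, 1 member was higher and 2 were lower, beside 9.6% and 7.98% of all genes, and DESeq2 called 1 of 39 members, ISG15, beside 521 of 22920 genes. The median log2FC was −0.07, beside 0.01 for all genes, and 26 of 37 members had a negative log2FC, beside 47.8% of all genes. No member was free of overlap between the diets, beside 3.47% of all genes.

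ISG15 averaged 17.1 ± 4.42 CPM in C and 9.63 ± 2.15 CPM in DOP (SD, n = 5), a log2FC of −0.83 (SE 0.25, edgeR adjusted p = 0.129). MX1 had log2FC −0.59 (SE 0.24, adjusted p = 0.214), whereas MX2 had −0.05 with an interval from −0.64 to 0.55. GBP1, a guanylate-binding GTPase that coats intracellular pathogens, had log2FC 0.69 (SE 0.27, adjusted p = 0.201). BST2 had −0.13 with an interval from −0.47 to 0.20. All DOP libraries and only 1 C library were on flow cell B, so that diet and flow cell can hardly be told apart in this comparison. With flow cell as a covariate, 0 members were called, beside 170 of 14918 genes. The median log2FC was −0.43, 34 of 37 members had a negative log2FC and 13 were lower at an unadjusted p under 0.05. The log2FC of MX2 was then −0.69 (adjusted p = 0.578). Shares of all genes for the signs and unadjusted p in this fit are not given here. The fit rests on C replicate 5, which was above the all-library mean in 36 of 37 members (median deviation 0.464). It therefore gives no statement on DOP against C pigs in general. Without C replicate 5 and without the covariate, the median log2FC was 0.048.

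WCOC vs. DOP set the olive diets against each other. Of the 37 members 3 were called (8.11%), GBP1, BST2 and MX2, all lower in WCOC, beside 7.76% of all tested genes and 5.11% in the lower direction. The share of called members is thus near that of all genes. The median log2FC was −0.06, and 23 of 37 members had a negative log2FC, beside 49.9% of all genes. Between these diets 3 members did not overlap, beside 8.9% of all genes, namely GBP1 and BST2 lower (4.77% of all genes) and TRIM21 higher in WCOC (4.14%).

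GBP1 showed the largest difference of any member. It was read at 102, 52.5, 34.4, 55.2 and 72.1 CPM in C, at 85.8, 124, 122, 124 and 53.6 CPM in DOP and at 42.8, 41.6, 32.8, 40.6 and 51.4 CPM in WCOC. DOP replicates 2, 3 and 4 held nearly the same level, far above every WCOC pig, while DOP replicate 5, the library with the most muscle RNA, lay just above the highest WCOC pig. The log2FC was −1.28 (SE 0.27, edgeR adjusted p = 0.00981), and the call held without any single library (adjusted p up to 0.0283) and among libraries with little muscle RNA (−1.31, adjusted p = 0.0482), a fit with only 2 DOP and 4 WCOC libraries.

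GBP2, a close relative that lies head to head with GBP1 on chromosome 4 with 17 kb between them, did not follow. It averaged 35.2 ± 7.48 CPM in C, 39.5 ± 6.04 CPM in DOP and 36.7 ± 1.35 CPM in WCOC, with log2FC −0.10 in WCOC vs. DOP (interval −0.38 to 0.18). The ratio of GBP1 to GBP2 counts had a median of 2.77 in DOP and of 1.14 in WCOC, and its ranges of 1.78 to 2.96 and of 0.91 to 1.35 did not overlap. In C it ran from 1.25 to 2.15. GBP1 alone was already seen not to overlap between DOP and WCOC, so its ratio to GBP2 adds little. The difference between the genes was not tested. Reads from related guanylate-binding genes may be shared in counting, which makes the split between such genes less certain.

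BST2 averaged 30.1 ± 6.18 CPM in DOP and had log2FC −0.58 in WCOC vs. DOP (SE 0.16, edgeR adjusted p = 0.0298). MX2 had log2FC −0.91 (SE 0.28, adjusted p = 0.049), while MX1 had −0.24 with an interval from −0.74 to 0.26. The call of BST2 was lost without DOP replicate 4 or WCOC replicate 1, 3, 4 or 5 (log2FC −0.615 to −0.46), and that of MX2 was lost without any single library except WCOC replicate 1 (log2FC −0.99 to −0.80). In DOP the ratio of MX1 to MX2 lay between 0.438 and 0.615 and in WCOC between 0.693 and 1.02, without overlap. In C it ran from 0.635 to 0.943. These ratios come from values already seen to differ and are given without a test.

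TRIM21, a cytosolic antibody receptor with ubiquitin ligase activity, was read at 17.5, 16.5, 14.4, 12.7 and 16.8 CPM in C, at 14.5, 13.85, 13.7, 14.1 and 11.3 CPM in DOP and at 18.9, 16.2, 15.9, 18.5 and 17.97 CPM in WCOC. All WCOC pigs were above all DOP pigs, and C spanned both. The log2FC of 0.37 (SE 0.10, edgeR adjusted p = 0.0304) was under the limit, so it was not called.

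The flow cell bears on all results of WCOC vs. DOP. The DOP libraries were all on flow cell B and the WCOC libraries all on A, and hence no value within a flow cell exists and only C, with 1 library on flow cell B, links them. With flow cell as a covariate the log2FC was −1.04 for GBP1 (adjusted p = 0.419), −0.39 for BST2 (adjusted p = 0.608) and −0.05 for MX2 (adjusted p = 0.975), and 1 of 14918 genes was called. Among skeletal muscle markers 6 of 6 tested genes were lower in WCOC at an unadjusted p under 0.05 (median log2FC −5.83, 3 called). Of 4 tested epidermis markers (median log2FC 4.04), KRT1 and DSG1 were called higher. TP63 went the other way (−4.20, edgeR adjusted p = 0.0564). KRT1 was at 6.48 and 59.95 CPM in WCOC replicates 2 and 5 and at most 0.57 CPM in the other WCOC libraries. The macrophage marker CD163 was called lower, with 4 of 11 of its list lower at an unadjusted p under 0.05. The adipocyte gene LEP was called higher. Of the 7 adipocyte markers, 2 were higher and 2 lower at an unadjusted p under 0.05, with a median log2FC of 0.09. The part of these in the results was not tested.

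The wider interferon pathway was read from 4 lists of other genes. Of 14 tested genes of nucleic acid sensing, 3 were called lower in WCOC vs. C, beside 3.93% of all genes: CGAS, the cytosolic DNA sensor (log2FC −1.07, SE 0.23, edgeR adjusted p = 0.0125), TLR8 (−1.87, SE 0.51, adjusted p = 0.0337) and TLR9 (−1.39, SE 0.36, adjusted p = 0.0254), endosomal receptors for RNA and DNA. TLR9 was also the only call of the 4 lists in DOP vs. C (−1.72, SE 0.37, adjusted p = 0.0452). TLR7, which senses single-stranded RNA, was higher in every WCOC pig than in every C and every DOP pig, with log2FC 0.37 (adjusted p = 0.012) and 0.49 (adjusted p = 0.0028), under the limit.

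Of 29 tested further interferon-inducible genes, 3 were called lower and 1 higher in WCOC vs. C, beside 3.93% and 2.33% of all genes. The lower ones were LGALS3BP, a secreted galectin-binding glycoprotein (log2FC −1.05, SE 0.20, edgeR adjusted p = 0.00606), IFI30, a lysosomal thiol reductase of antigen-presenting cells (−1.41, SE 0.34, adjusted p = 0.0188), and SLFN11 (−1.5, SE 0.38, adjusted p = 0.023). CD274, the ligand of the checkpoint receptor PD-1, was higher (0.90, SE 0.22, adjusted p = 0.021). The part of the macrophages, whose markers were lower in this comparison, was not tested. None of the 15 tested genes of signal transduction or the 5 of interferons and receptors was called in any comparison, and over the 4 lists 9 of 63 tested genes were higher and 16 lower at an unadjusted p under 0.05 in WCOC vs. C (13.2% and 13.1% of all genes), 10 of the lower ones among the further inducible genes and 5 among the sensors. In DOP vs. C 0 were higher and 14 lower (9.6% and 7.98% of all genes). In WCOC vs. DOP, 0 genes of the 4 lists were called by edgeR, with 10 higher and 7 lower at an unadjusted p under 0.05 (12.8% and 15.4% of all genes).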

How the data were processed

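RNA of 15 backfat biopsies was sequenced as paired-end libraries. The authors aligned reads to Sscrofa11.1 (HISAT2) and assigned them to Ensembl genes (HTSeq). They deposited raw counts, 1 file per pig, without normalisation. Neither the strand option of the counting nor the release of the annotation is given in the sources used here. The 5 summary lines of each file (23.4% to 32.8% of a library) were left out of library sizes and tests. Flow cells and lanes were read from the run identifiers.

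Gene symbols were matched to the Ensembl identifiers of the count files through a gene name table. Counts were filtered with filterByExpr, scaled by TMM and tested with the quasi-likelihood test of edgeR 4.0.16 in R 4.3.3, with 1 fit over the 3 diets and Benjamini-Hochberg adjustment over 14918 genes (common dispersion 0.0814). CPM and log2FC were computed here. Calls needed a log2FC beyond 0.58 on either side together with an adjusted p below 0.05, the limits of the study. The p-values measure the spread between 5 pigs per diet, each diet fed in 1 pen. The closest pair of libraries had a log2 CPM correlation of 0.9831, so that no library was taken for a copy of another.

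The members and the other gene lists were chosen with earlier results of these data known. Values in every library are given for members called in any comparison, members without overlap between 2 diets and the 3 members of highest CPM per kb of RefSeq exon. The others are given by counts and ranges with the most abundant gene of a role as an example, and USP18, HERC5, RSAD2, GBP2 and PSMB9 are also described, chosen after their values were seen. Of the other interferon lists, called genes and the receptor chains are named, 1 gene that the rule also names is not reported here, and IFNGR1 and TLR7 are described in more detail after their values were seen.

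The script was tested on simulated counts for WCOC vs. C over 14834 genes, where 10, 38, 47 and 50 of 50 genes changed by 1.5, 2, 4 and 8 times were called, with 10 false calls. The alternatives were DESeq2 size factors, DESeq2 1.42.0, limma-voom (limma 3.58.1), all genes kept or only those with 10 counts in each library, a separate fit per pair of diets, a replicate block, a flow cell term, flow cell A by itself, adjusted p without a log2FC limit, and each library left out. One further alternative, only libraries under 1000 CPM of skeletal muscle markers, was added after seeing the data. Sequences were read from the RefSeq copy of Sscrofa11.1.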

Additional observations from a re-analysis of the deposited data

Results flagged for a closer look

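In each diet the highest or lowest pig was compared with its nearest neighbour, and a value was picked out where that gap took more than 0.71 of the range of the 5 pigs. Of 114 groups examined, 7 met this, and chance alone picks about 1 in 20 groups (5%).

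In WCOC replicate 1 the values of 4 genes stood apart from those of the other WCOC pigs. MX2 was at 44.0 CPM there, the next pig being at 24.9. EIF2AK2, the kinase that stops translation when it binds double-stranded RNA, was at 69.0 CPM, the next being at 43.0. ZNFX1 was at 114 CPM, the next being at 85.2. CMPK2, a mitochondrial nucleotide kinase that lies head to head with RSAD2, was at 23.7 CPM, the next being at 18.8.

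In DOP replicate 2 the values of 2 genes stood apart, IFIT2 at 28.8 CPM (next 15.9) and ISG20 at 2.15 CPM (next 0.37), the latter on 57 counts. In DOP replicate 5, TRIM21 was at 11.3 CPM, below the next pig at 13.7. DOP replicates 2 and 5 held 10480 and 51530 CPM of skeletal muscle markers. ISG20 was lowest of its diet in DOP replicates 4 (0.1878 CPM) and 5 (0.244 CPM), and DOP replicate 4 held 6809 CPM of these markers. DOP replicate 2 also had the highest sum of 8 B and plasma cell markers of all libraries (22.04 CPM). Its T and NK cell sum (43.93 CPM) was near that of DOP replicate 1 (42.94 CPM). Of that list, CD4 (19.68 beside 9.74 CPM) and NKG7 (6.31 beside 4.94 CPM) were higher in DOP replicate 1. The other markers of the list were higher in DOP replicate 2, such as CD3E (5.17 beside 2.53 CPM). The part of muscle RNA or of these immune cells in the values picked out was not tested.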

How the results depend on the processing

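The count of members called in WCOC vs. C (4) was 2 in the fit on these diets only, 1 with a replicate block, 1 with flow cell as a covariate, 1 on flow cell A alone and 0 among libraries under 1000 CPM of muscle markers, the last chosen after seeing the data. With each library left out it ran from 1 to 4, being 2 without C replicate 2 and 1 without C replicate 3 or 5 or WCOC replicate 3, 4 or 5. The count in WCOC vs. DOP (3) was 1 without a filter, 1 with a replicate block, 0 with flow cell as a covariate and 1 among libraries with little muscle RNA (3 C, 2 DOP and 4 WCOC libraries). It ran from 1 to 2 with each library left out, being 1 without DOP replicate 4 or WCOC replicate 3, 4 or 5. DESeq2 called 1 member in DOP vs. C, where edgeR called 0 in every alternative, and over all genes 0 were called there without C replicate 3 or 5 or DOP replicate 2 or 4. The shares of all genes called in most of these settings are not given here, so the counts of members cannot be set beside them. The cause of these changes was not tested.

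BST2 in WCOC vs. C kept its call in 19 of 20 alternatives, with log2FC from −0.82 to −0.59, and lost it among libraries with little muscle RNA. GBP1 in WCOC vs. DOP kept its call in 18 of 19, with log2FC from −1.45 to −1.04. ISG15 kept its call in 11 of 20, MX1 in 9 of 20 and MX2 in 6 of 20 in WCOC vs. C, all with a negative log2FC. BST2 and MX2 in WCOC vs. DOP kept theirs in 9 and 5 of 19. ISG15 in WCOC vs. DOP, not called, turned from −0.16 to 0.23 among libraries with little muscle RNA. The median log2FC of the members turned to 0.05 without C replicate 5 and moved from −0.07 to −0.43 with flow cell as a covariate (DOP vs. C), and turned to 0.43 with flow cell as a covariate and 0.03 without DOP replicate 2 (WCOC vs. DOP).

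The replicate numbers did not pair the pigs: same-numbered pigs of 2 diets had correlations of their deviations from −0.495 to 0.345. Low counts limit STAT2 and ISG20.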
